A study of Mus musculus with 8 samples.

Results

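The 8 genes described here are markers of mast cells and basophils: the mast cell carboxypeptidase Cpa3, the basophil proteases Mcpt8 and Prss34, the IgE receptor subunits Ms4a2 and Fcer1a, the histamine-forming enzyme Hdc, and the connective tissue mast cell proteases Tpsb2 and Cma1. They were taken by symbol, and all 8 were among the 23293 mouse genes of the deposited expression table. Messenger RNA was sequenced from c-Kit-positive bone marrow cells of mice, in 8 libraries of 4 genotypes with 2 individual animals each, 4 weeks after PIpC was injected. PIpC is an interferon inducer that switches on the Mx1-cre recombinase, whose promoter is active in blood-forming cells and also in other tissues. The combined group carried Flt3-ITD, an activating internal tandem duplication in the receptor kinase Flt3, together with Mx1-cre and a deleted Smc3 allele. The labels give its Smc3 genotype as fl/del in the genotype field and as het in the sample titles. The Flt3-ITD group carried the duplication and Mx1-cre. The Smc3 del/+ group carried Mx1-cre and had lost a single allele of Smc3, a subunit of the cohesin ring that holds sister chromatids together. The controls carried a floxed Smc3 allele (fl/+) without Mx1-cre, and were thus the only group lacking the recombinase. Neither age nor sex is given in the labels.

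Mast cells and basophils are granulocytes of allergy and of defence against parasites. Both arise in the bone marrow from c-Kit-positive progenitors, bind IgE through the receptor FceRI, and release histamine and proteases from their granules when that receptor is crosslinked. Basophils finish maturing in the marrow and lose c-Kit, whereas mast cells leave as immature cells, keep c-Kit and fill their granules with chymase and tryptase in the tissues. Cpa3 is made early in that programme, already in progenitors. Hdc is less restricted, since in mouse marrow it is also expressed by immature myeloid cells.

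The label of the gene group held only in part against the data. Tpsb2, a tryptase, and Cma1, a chymase, which mark mature connective tissue mast cells, were listed at 0 in all 8 libraries, as were 6 of the 17 listed mast cell granule genes in the table, among them Tpsab1, Mcpt1, Mcpt2 and Mcpt4. In files of this kind a 0 can also be a failed estimate. The other 6 genes passed the filter of a mean of at least 1 FPKM (fragments normalised for transcript length and library size) and were tested with 10848 other genes. Fcer1a passed through its levels in the Smc3 del/+ and control libraries and was near the limit in the others.

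Several features of the libraries bear on every comparison. Combined replicate 2 stood apart, with 11076 genes listed at 0 against 8878 to 9907 in the other 7 libraries, and the combined replicates correlated less well (r = 0.932) than those of the other groups (0.975 to 0.981). Xist, the RNA of the inactive X chromosome in females, stood at 596 and 500 FPKM in the combined and at 657 and 617 FPKM in the control libraries, and below 1 FPKM in all 4 Flt3-ITD and Smc3 del/+ libraries. The genotype therefore cannot be told apart from sex in Flt3-ITD or Smc3 del/+ against control, in the combined group against Flt3-ITD, or in the interaction of both alterations, nor from the recombinase in any comparison with control. Smc3 was not lower in the libraries labelled as deleted, with 103 and 136 FPKM in the combined, 94.7 and 89.9 in the Flt3-ITD, 135 and 133 in the Smc3 del/+ and 119 and 112 in the control libraries. Whole-gene values also count reads from exons outside a deletion, and the names Smc3 del/+ and combined are those of the labels throughout. Kit, the receptor used for the selection, was at 40.1 and 37.4 FPKM in the combined, 48.1 and 57.6 in the Flt3-ITD, 49.5 and 48.9 in the Smc3 del/+ and 60.1 and 54.9 in the control libraries. Flt3 was at 14.3 and 7.92 FPKM in the combined, 3.64 and 5.36 in the Flt3-ITD, 4.95 and 4.74 in the Smc3 del/+ and 5.81 and 5.21 in the control libraries, and its level does not show the duplication.

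The promoters of 5 of the genes are shown because these genes are the ones that differed between carriers and non-carriers of Flt3-ITD, or, for Hdc, that went the other way, and because the GATA factors of the lineage, whose binding motif has GATA at its core, differed as well. Each runs from 250 bases before to 50 after the annotated start (RefSeq, build GRCm38.p6, 5′ to 3′ on the gene's strand). Capitals mark GATAA, or TTATC where it lies on the opposite strand.
Cpa3, chr3:20242132-20242431, minus strand: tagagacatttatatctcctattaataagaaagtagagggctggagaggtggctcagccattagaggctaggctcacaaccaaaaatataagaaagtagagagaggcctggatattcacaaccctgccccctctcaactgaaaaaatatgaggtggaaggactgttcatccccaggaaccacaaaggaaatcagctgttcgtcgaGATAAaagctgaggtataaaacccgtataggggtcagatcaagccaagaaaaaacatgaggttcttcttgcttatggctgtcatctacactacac
Ms4a2, chr19:11623670-11623969, minus strand: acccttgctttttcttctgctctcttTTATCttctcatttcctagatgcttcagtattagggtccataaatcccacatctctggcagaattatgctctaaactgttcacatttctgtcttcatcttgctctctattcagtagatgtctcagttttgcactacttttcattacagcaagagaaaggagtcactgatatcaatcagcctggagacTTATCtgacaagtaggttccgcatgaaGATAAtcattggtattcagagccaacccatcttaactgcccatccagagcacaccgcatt
Prss34, chr17:25298144-25298443, plus strand: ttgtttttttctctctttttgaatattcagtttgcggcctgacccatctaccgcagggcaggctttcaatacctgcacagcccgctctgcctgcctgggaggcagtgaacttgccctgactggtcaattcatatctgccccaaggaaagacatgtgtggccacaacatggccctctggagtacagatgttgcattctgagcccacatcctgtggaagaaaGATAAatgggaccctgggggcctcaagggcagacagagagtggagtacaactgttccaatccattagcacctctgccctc
Mcpt8, chr14:56085148-56085447, minus strand: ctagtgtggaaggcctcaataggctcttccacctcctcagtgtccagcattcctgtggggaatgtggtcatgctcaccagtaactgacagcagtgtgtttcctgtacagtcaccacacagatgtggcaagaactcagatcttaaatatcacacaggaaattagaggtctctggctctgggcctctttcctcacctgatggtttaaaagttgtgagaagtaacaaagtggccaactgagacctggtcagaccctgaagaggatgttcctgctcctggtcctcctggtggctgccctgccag
Hdc, chr2:126618629-126618928, minus strand: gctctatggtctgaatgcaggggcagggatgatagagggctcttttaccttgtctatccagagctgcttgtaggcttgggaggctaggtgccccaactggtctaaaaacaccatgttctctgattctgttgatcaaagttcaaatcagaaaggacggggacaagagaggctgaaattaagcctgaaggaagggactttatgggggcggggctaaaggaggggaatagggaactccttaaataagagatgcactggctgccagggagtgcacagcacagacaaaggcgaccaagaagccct
The letters GATAA occurred on either strand once in Cpa3, at -45 from the start, once in Prss34, at -30, and 3 times in Ms4a2, at -224, -37 and -10. Neither Mcpt8 nor Hdc held them in this window. Of the other matched genes, Fcer1a held them at -92 and Cma1 at -194, so that 5 of the 7 matched promoters had a match, against 25.4% of 32851 promoters of the same length. The motif was picked with the sequences in view, and a match describes letters, not bound sites. Mcpt8, which was lower in carriers of Flt3-ITD, and Hdc, which was not, both lacked a match to GATAA. Other letters with GATA at their core were not searched. Both sequences hold GATA followed by another letter, Hdc in gatgatagag and Mcpt8, on the opposite strand, in aaatatcaca. The letters TATAAA, searched on both strands, occurred in Cpa3 at -31 and, on the opposite strand, at -242, in Fcer1a at -125, and in 13.6% of all promoters.

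Cpa3 encodes the carboxypeptidase A of mast cell granules and, with Hdc, was the most abundant member in the Smc3 del/+ and control libraries. It was at 11.6 and 24.5 FPKM in the combined, 13.3 and 16.3 FPKM in the Flt3-ITD, 56.6 and 57.6 FPKM in the Smc3 del/+ and 32.2 and 32.3 FPKM in the control libraries. Every library with Flt3-ITD lay below every library without it, and the Smc3 del/+ libraries lay above the controls. The combined and Flt3-ITD libraries overlapped, with the combined replicates on either side of the Flt3-ITD pair.

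Ms4a2 and Fcer1a encode the beta and alpha chains of FceRI. The alpha chain binds IgE and the beta chain amplifies the signal. Ms4a2 was at 9.41 and 17.5 FPKM in the combined, 9.61 and 7.34 FPKM in the Flt3-ITD, 22.1 and 21.0 FPKM in the Smc3 del/+ and 12.7 and 15.0 FPKM in the control libraries. Its Smc3 del/+ libraries were above all others and its Flt3-ITD libraries below the controls, while the wide combined pair overlapped both the Flt3-ITD and the control libraries. Fcer1a was low throughout, at 2.12 and 0 FPKM in the combined, 0 and 0.976 FPKM in the Flt3-ITD, 4.07 and 2.44 FPKM in the Smc3 del/+ and 2.65 and 1.35 FPKM in the control libraries. Neighbouring groups in the order of its means overlapped each time.

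Mcpt8, a granule protease used to mark basophils, was at 25.3 and 20.5 FPKM in the combined, 17.9 and 17.8 FPKM in the Flt3-ITD, 31.7 and 37.0 FPKM in the Smc3 del/+ and 24.9 and 26.5 FPKM in the control libraries. Prss34, another basophil serine protease, was at 8.33 and 10.7 FPKM in the combined, 4.54 and 3.16 FPKM in the Flt3-ITD, 14.8 and 13.5 FPKM in the Smc3 del/+ and 8.54 and 11.6 FPKM in the control libraries. Both basophil proteases had the same order of groups: Smc3 del/+ highest, then combined and control, which overlapped, and Flt3-ITD lowest, with its libraries below all others.

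Hdc converts histidine to histamine. It was at 64.5 and 52.3 FPKM in the combined, 73.4 and 61.8 FPKM in the Flt3-ITD, 50.5 and 57.8 FPKM in the Smc3 del/+ and 39.2 and 44.0 FPKM in the control libraries. The control libraries were the lowest, and the other 3 groups overlapped with their neighbours. In the authors' normalized table the controls were not lowest.

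**Figure D1:**
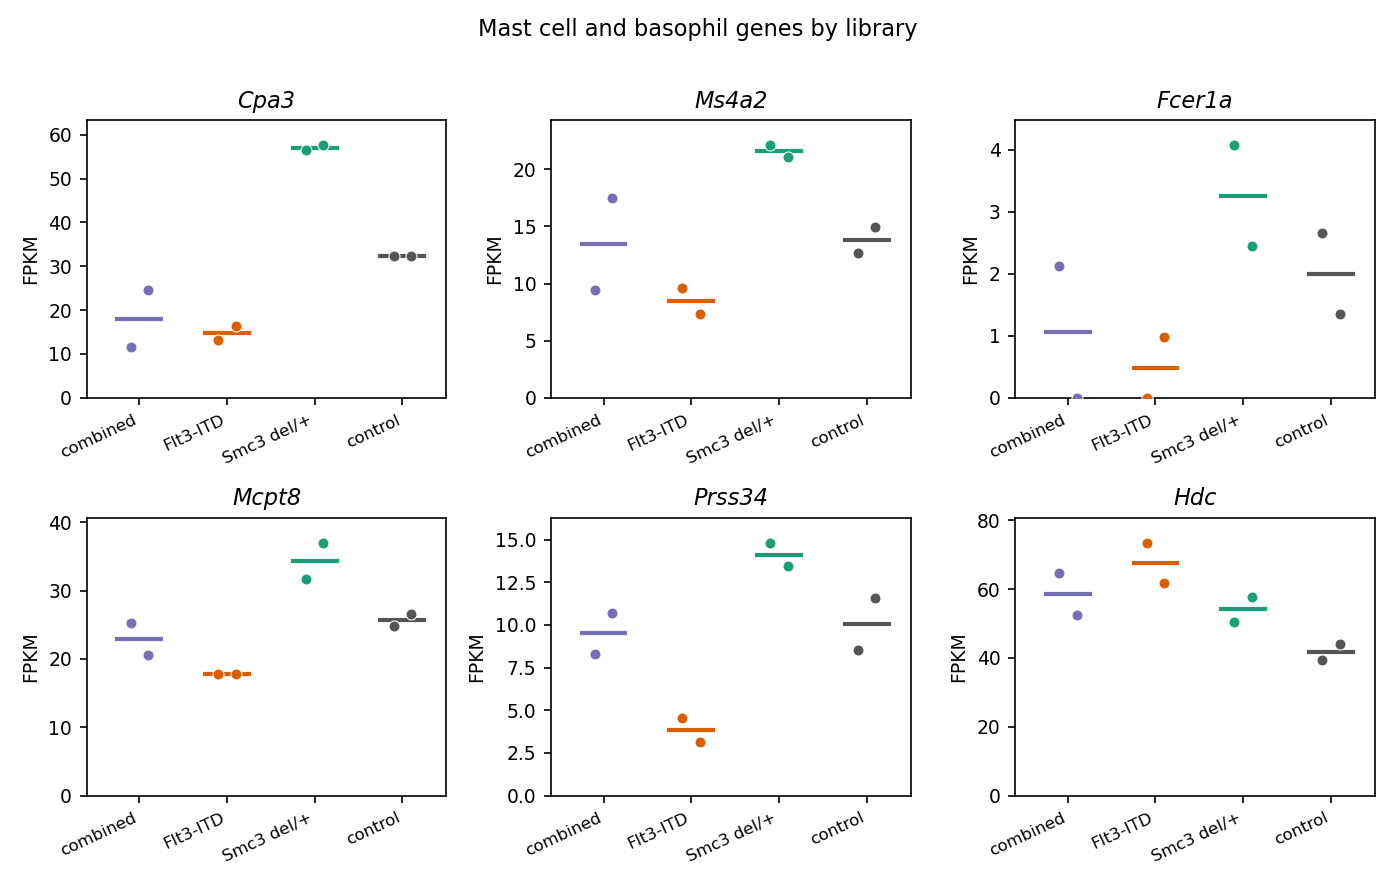
Levels of the 6 detected genes in FPKM (vertical axis, from 0) in the combined, Flt3-ITD, Smc3 del/+ and control libraries, with a point for each library and a bar at the mean of 2. Cpa3, Ms4a2, Mcpt8 and Prss34 are highest in the Smc3 del/+ libraries, at 13.5 FPKM or more, whereas Hdc, on this scale but not in the normalized table, is lowest in controls.

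The balance between the members shifted with these levels. Hdc was 5.55 and 2.14 times as high as Cpa3 in the combined, 5.52 and 3.78 times in the Flt3-ITD, 0.893 and 1.0 times in the Smc3 del/+ and 1.22 and 1.36 times in the control libraries, both per transcript length. All 4 libraries with Flt3-ITD lay above all 4 without it in this ratio. The FPKM summed over the 8 genes without Hdc came to 56.8 and 73.2 in the combined, 45.3 and 45.6 in the Flt3-ITD, 129.2 and 131.5 in the Smc3 del/+ and 81.0 and 86.8 in the control libraries. With Hdc in the sum, the combined (121.3 and 125.6) and control libraries (120.2 and 130.7) overlapped. Across the 8 libraries, Ms4a2 correlated with Prss34 at r = 0.917 and with Cpa3 at 0.885, and Mcpt8 with Prss34 at 0.845, whereas Hdc correlated negatively with the other 5 tested members (-0.367 to -0.583). These coefficients describe 8 libraries in 4 groups and share the group differences.

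The effect of Flt3-ITD was first taken as an average over both Smc3 genotypes, with 4 carriers (combined and Flt3-ITD) against 4 non-carriers (Smc3 del/+ and control). In this comparison the sexes shown by Xist are balanced, while 2 of the 4 non-carriers lack the recombinase. Of the 8 genes, 4 were lower in carriers in limma's test with Benjamini-Hochberg adjustment over all genes, none was higher, 2 did not pass and 2 were not tested. For comparison, 23.8% of all genes passed, and 12.8% passed as lower. Cpa3 averaged 16.4 ± 5.72 FPKM in carriers and 44.7 ± 14.3 FPKM in non-carriers (SD, n = 4 each), a log2 fold change of -1.39 ± 0.22 (SE, limma adjusted p = 0.00458). Prss34 averaged 6.68 ± 3.46 FPKM in carriers and 12.1 ± 2.71 FPKM in non-carriers, with a log2 fold change of -0.86 ± 0.19 (limma adjusted p = 0.0145). Both genes were also lower in Flt3-ITD than in control libraries when these were compared alone. The combined and control libraries overlapped for Prss34, as they did for Ms4a2 and Mcpt8.

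Ms4a2 averaged 11.0 ± 4.48 FPKM in carriers and 17.7 ± 4.59 FPKM in non-carriers, a log2 fold change of -0.68 ± 0.18 (limma adjusted p = 0.0299). Mcpt8 averaged 20.4 ± 3.53 FPKM in carriers and 30.0 ± 5.47 FPKM in non-carriers, a log2 fold change of -0.53 ± 0.11 (limma adjusted p = 0.00938), the smallest change of the 4 lower genes and the one with the smallest error. Fcer1a had a log2 fold change of -1.15 ± 0.39 (limma adjusted p = 0.0652). Fcer1a passed the filter through its levels in the Smc3 del/+ and control libraries, which favoured a lower value in carriers. Hdc averaged 63.0 ± 8.66 FPKM in carriers and 47.9 ± 8.07 FPKM in non-carriers, a log2 fold change of 0.39 ± 0.15 that did not pass (limma adjusted p = 0.0864) and was -0.04 in the normalized table. Cpa3, Mcpt8 and Prss34 passed whichever library was left out, whereas Ms4a2 had adjusted p from 0.0522 to 0.0950 without a control, Smc3 del/+ or Flt3-ITD library. Without combined replicate 2, Hdc had 0.51, and without combined replicate 1, Fcer1a had -1.46. The number of calls over all genes also changed with the library left out.

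**Figure D2:**
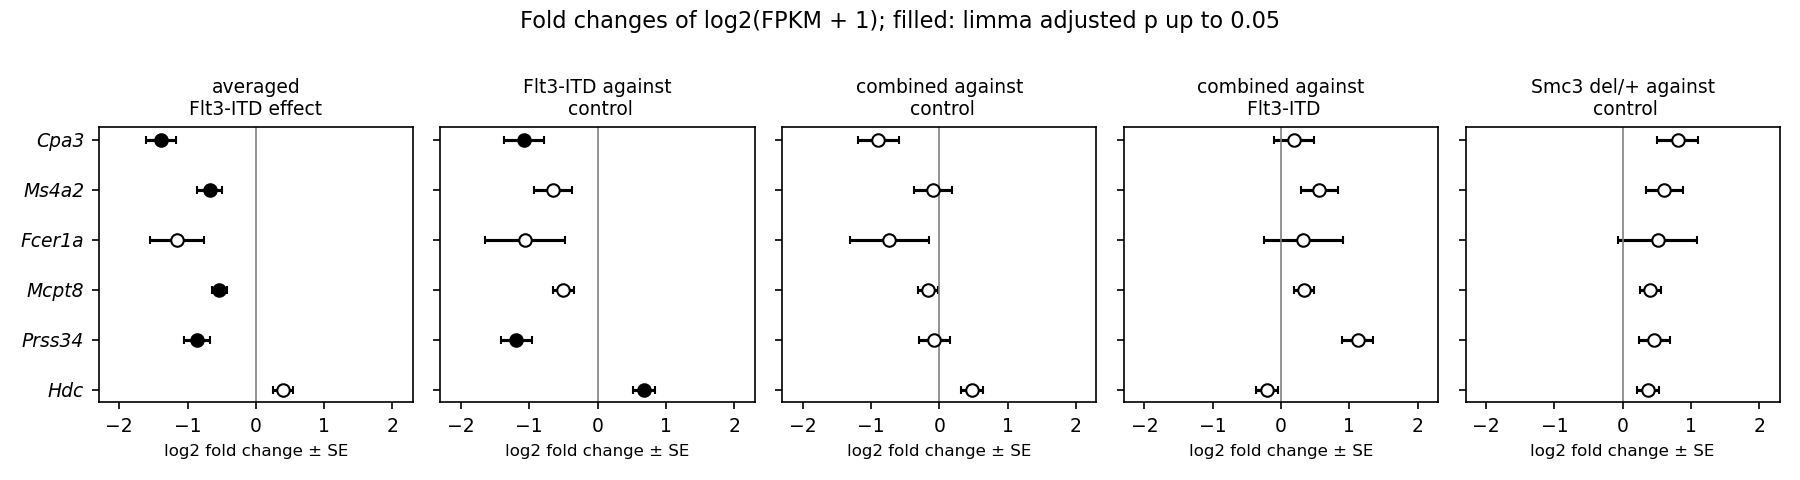
Log2 fold changes of log2(FPKM + 1) with SE (horizontal axis) of the 6 tested genes in 5 comparisons, each the named group over the one it is set against; filled points passed limma's adjusted p of 0.05. Cpa3, Ms4a2, Mcpt8 and Prss34 are filled on the negative side for the averaged Flt3-ITD effect, and Hdc is filled on the positive side for Flt3-ITD against control, a call it does not keep in the normalized table (0.16).

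In Flt3-ITD against control alone, with 2 libraries in each group, 2 of the 8 genes were lower, 1 was higher, 3 did not pass and 2 were not tested, where 18.0% of all genes passed (9.50% as lower, 8.51% as higher). Prss34 was lower, at 3.85 ± 0.975 FPKM in Flt3-ITD and 10.1 ± 2.17 FPKM in control libraries (SD), a log2 fold change of -1.19 ± 0.23 (limma adjusted p = 0.0139). Cpa3 was lower as well, at 14.8 ± 2.16 FPKM in Flt3-ITD and 32.3 ± 0.0241 FPKM in control libraries (-1.08 ± 0.29, limma adjusted p = 0.0427). Hdc was higher, at 67.6 ± 8.17 FPKM in Flt3-ITD and 41.6 ± 3.36 FPKM in control libraries (0.68 ± 0.16, limma adjusted p = 0.0277), but not in the normalized table (0.16, adjusted p = 0.566). Mcpt8 (-0.50 ± 0.15, limma adjusted p = 0.0597), Ms4a2 (-0.65 ± 0.27, adjusted p = 0.140) and Fcer1a (-1.06 ± 0.58, adjusted p = 0.248) did not pass. The Flt3-ITD libraries lay wholly below the controls for 5 of the 6 tested members, against 35.2% of all genes. Fcer1a, for which the filter favoured this direction, was among them. In bulk RNA, fewer cells of a type and less RNA per cell cannot be told apart.

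These calls at 2 libraries a group were not stable to leaving out a library, while the fold changes kept their direction. The log2 fold changes ranged from -1.22 to -0.94 for Cpa3, from -1.40 to -0.99 for Prss34 and from 0.56 to 0.81 for Hdc. Cpa3 had adjusted p = 0.235 and 0.110 without Flt3-ITD replicate 1 or 2, 0.0870 and 0.0871 without Smc3 del/+ replicate 1 or 2, and 0.199 and 0.178 without control replicate 1 or 2. Hdc had adjusted p = 0.173 and 0.0621 without either Flt3-ITD library, 0.0609 and 0.0609 without either Smc3 del/+ library, and 0.191 and 0.109 without either control library. Prss34 missed the threshold without Flt3-ITD replicate 2 (0.0742) and without control replicate 1 or 2 (0.0619 and 0.109). Like the Smc3 del/+ libraries, the combined libraries enter this comparison only through the spread. Leaving out either combined library kept these fold changes and changed the number of calls, among members and among all genes.

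In the normalized table the median of all genes shifted by -0.58 in Flt3-ITD against control, by -0.67 in combined against control and by -0.38 in Smc3 del/+ against control. Measured against these medians, Cpa3 had -1.04 in Flt3-ITD against control in the normalized table and -1.07 in the first, Prss34 -1.19 in both, Ms4a2 -0.65 in both, Mcpt8 -0.46 and -0.50, and Hdc 0.74 and 0.69. Fcer1a differed more, with -0.90 and -1.05 in Flt3-ITD against control and -0.41 and -0.72 in combined against control. On that table's own scale 5 members were lower in Flt3-ITD than in control libraries, all but Hdc. There, 4874 of 11027 genes passed in either direction.

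**Figure D3:**
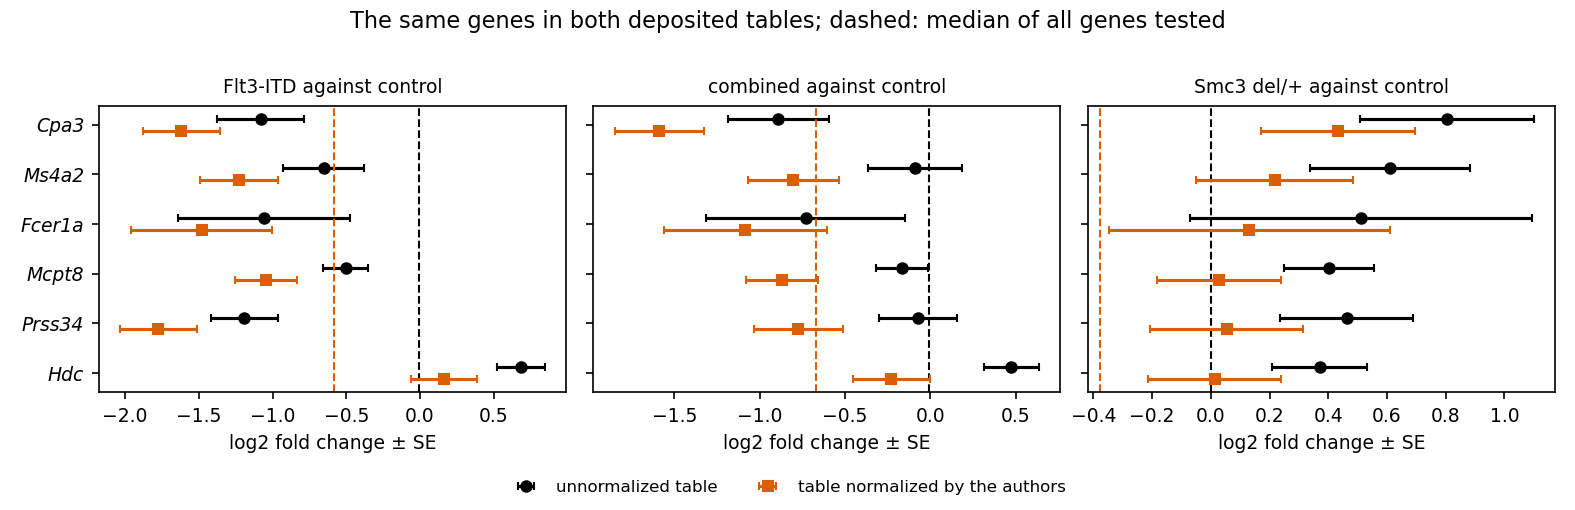
Log2 fold changes with SE (horizontal axis, ranges differ between panels) of the 6 tested genes from both tables of the authors, with dashed lines at the median of all genes tested. The normalized table, with medians at -0.58, -0.67 and -0.38, moves every gene down, which takes Hdc in combined against control to -0.23.

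Smc3 del/+ against control compares libraries labelled as having lost a single Smc3 allele with controls. By Xist these groups also differ in sex, and the controls lack the recombinase. All 6 tested members had higher means in the libraries labelled Smc3 del/+, and 5 of the 6, Fcer1a apart, lay wholly above the controls, against 24.2% of all genes. None of the 8 passed limma's test, in which 0.00921% of all genes passed, and 2 members (Cpa3 and Mcpt8) had an unadjusted p under 0.05, against 4.55% of all genes. Cpa3 averaged 57.1 ± 0.745 FPKM in Smc3 del/+ and 32.3 ± 0.0241 FPKM in control libraries (SD, n = 2 each), a log2 fold change of 0.80 ± 0.29 (limma adjusted p = 0.991). Ms4a2 averaged 21.6 ± 0.747 FPKM in Smc3 del/+ and 13.8 ± 1.65 FPKM in control libraries (0.61 ± 0.27, adjusted p = 1 by limma). The log2 fold changes of Prss34, Mcpt8 and Hdc were 0.46, 0.40 and 0.37. With these 2 groups fitted alone, Cpa3 passed as higher (adjusted p = 0.0277). In the normalized table, where the median gene stood at -0.38, Cpa3 had 0.43, Ms4a2 0.22 and the others from 0.01 to 0.13.

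The combined group against Flt3-ITD compares libraries labelled with and without the Smc3 deletion in the presence of the duplication. These groups differ in sex by Xist as well. None of the 8 genes passed limma's test, in which 0.286% of all genes passed, and Prss34 alone had an unadjusted p under 0.05 (11.0% of all genes did). Prss34 averaged 9.51 ± 1.67 FPKM in combined and 3.85 ± 0.975 FPKM in Flt3-ITD libraries, a log2 fold change of 1.12 ± 0.23 (limma adjusted p = 0.143). Prss34 and Mcpt8 lay wholly above the Flt3-ITD libraries in the combined pair, against 17.1% of all genes. Mcpt8 had a log2 fold change of 0.34 ± 0.15 (adjusted p = 0.459 by limma), Ms4a2 of 0.56 ± 0.27 (adjusted p = 0.479) and Cpa3 of 0.19 ± 0.29 (adjusted p = 0.796). Hdc had -0.21 ± 0.16 (adjusted p = 0.611). The value of Cpa3 turned on the library: it was 0.70 without combined replicate 1 and -0.32 without combined replicate 2. Prss34 had 1.29 and Ms4a2 0.98 without combined replicate 1. The number of calls over all genes also changed with each library left out.

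Combined against control, 2 groups with the same Xist pattern, put both alterations and the recombinase against neither. None of the 8 genes passed, where 11.8% of all genes did, and Cpa3 and Hdc had an unadjusted p under 0.05 (28.6% of all genes did). Cpa3 averaged 18.1 ± 9.10 FPKM in combined and 32.3 ± 0.0241 FPKM in control libraries (-0.89 ± 0.29, limma adjusted p = 0.0945). Hdc averaged 58.4 ± 8.61 FPKM in combined and 41.6 ± 3.36 FPKM in control libraries (0.47 ± 0.16, limma adjusted p = 0.101), with -0.23 in the normalized table. Prss34, Ms4a2 and Mcpt8 had fold changes of -0.07 ± 0.23, -0.09 ± 0.27 and -0.16 ± 0.15. The normalized table, with its median gene at -0.67, called 4 members lower here, Cpa3 at -1.59, Mcpt8 at -0.87, Ms4a2 at -0.80 and Prss34 at -0.78. That table called 5981 of 11027 genes here in either direction. Without combined replicate 2, Cpa3 had -1.40 and Hdc 0.62. Without combined replicate 1, Fcer1a had -1.55, a direction that the filter on low values favoured.

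Whether the Smc3 deletion had a different effect with and without Flt3-ITD was tested as an interaction, which by the Xist pattern is also the contrast between the sexes and cannot be told apart from it. None of the 8 genes passed, where 0.0369% of all genes did, and Hdc alone had an unadjusted p under 0.05 (-0.58 ± 0.23, limma adjusted p = 0.491), as did 9.30% of all genes. Cpa3 had an interaction of -0.61 ± 0.42 (adjusted p = 0.686) and Prss34 of 0.66 ± 0.32 (adjusted p = 0.587). Cpa3 had -1.12 without combined replicate 2, and Hdc had -0.73 without combined replicate 1. Averaged over both Flt3 genotypes, with the sexes balanced, the Smc3 deletion had log2 fold changes of 0.79 ± 0.19 for Prss34, 0.59 ± 0.18 for Ms4a2, 0.50 ± 0.22 for Cpa3, 0.37 ± 0.11 for Mcpt8 and 0.08 for Hdc, which had -0.19 in the normalized table. None passed (limma adjusted p = 0.855 for Prss34, 0.944 for Hdc and 0.902 for the others), and neither did any other gene (0% of those tested). Prss34, Mcpt8 and Ms4a2 had an unadjusted p under 0.05 (0.00271, 0.00709 and 0.0117), as did 4.84% of all genes.

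The third chain of the receptor did not move with the others. Fcer1g, the gamma chain that FceRI shares with other Fc receptors of myeloid cells, was at 600 and 472 FPKM in the combined, 672 and 560 FPKM in the Flt3-ITD, 332 and 280 FPKM in the Smc3 del/+ and 304 and 289 FPKM in the control libraries. All libraries with Flt3-ITD lay above all without it, and in Flt3-ITD against control the log2 fold change was 1.05 ± 0.18 (limma adjusted p = 0.00950), while Ms4a2 had -0.65 ± 0.27. In the normalized table Fcer1g had 0.56 (adjusted p = 0.0874) and Ms4a2 -1.23. Per transcript length, there was 63.8 and 26.9 times as much Fcer1g as Ms4a2 in the combined, 69.9 and 76.3 times in the Flt3-ITD, 15.0 and 13.3 times in the Smc3 del/+ and 24.0 and 19.3 times in the control libraries.

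Most signalling genes downstream of the receptor are used by other blood cells as well. Of 22 listed and tested, Fcer1g among them, 9 were higher and 1 was lower in Flt3-ITD than in control libraries. Of all genes, 18.0% passed. The median log2 fold change was 0.59 against -0.01 for all genes. In the normalized table, which called a larger share of all genes, the count was 1 higher and 4 lower, with a median of 0.02 against -0.58. The higher ones included the adapter Lcp2 (1.03, limma adjusted p = 0.00254), which was higher in both tables, the kinase Lyn, which phosphorylates the beta and gamma chains (0.92, adjusted p = 0.00570), the protein kinases C Prkcb (1.07, adjusted p = 0.00948) and Prkcd (0.85, adjusted p = 0.0117), and the exchange factor Vav1 (0.75, adjusted p = 0.0217). Lat, the membrane adapter that links the receptor's kinases to phospholipase C, was the lower one (-1.48 ± 0.35, adjusted p = 0.0279). It was at 0.493 and 0 FPKM in the combined, 0 and 0.554 FPKM in the Flt3-ITD, 2.27 and 1.40 FPKM in the Smc3 del/+ and 2.72 and 2.23 FPKM in the control libraries, a low level throughout. Lat passed the filter through the libraries without Flt3-ITD, so that a call in this direction was favoured. In Smc3 del/+ against control, none of the 22 passed by limma, and 2 had an unadjusted p under 0.05 (4.55% of all genes did). A positive value was found for 12 of the 22 (0 in the normalized table).

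Among 15 tested receptors and surface proteins of mast cells and basophils, 5 were higher and 2 lower in Flt3-ITD than in control libraries (median 0.92). Of all genes, 18.0% passed. In the normalized table, which called a larger share of all genes, Il18r1 and Ifitm1 were higher and 2 genes lower (median 0.39 against -0.58 for all genes). Il1rl1, the IL-33 receptor ST2, was lower, with a log2 fold change of -2.81 ± 0.33 (limma adjusted p = 0.00288). It was at 3.36 and 4.49 FPKM in the combined, 1.89 and 0.380 FPKM in the Flt3-ITD, 12.7 and 12.5 FPKM in the Smc3 del/+ and 12.8 and 13.3 FPKM in the control libraries. Its Smc3 del/+ libraries lay slightly below the controls (-0.04 ± 0.33, adjusted p = 1), where those of Cpa3 and Ms4a2 lay above. The integrin subunit Itga4 was the other lower gene (-0.82, adjusted p = 0.00474), and the higher genes included the IL-18 receptor chain Il18r1 (1.86, adjusted p = 0.00253), Ifitm1 (2.54, adjusted p = 0.00257), Cd9 (1.04, adjusted p = 0.0108) and the IL-6 receptor Il6ra (0.92, adjusted p = 0.0128). Cd200r3, a surface receptor of both cell types in mice, was at 1.17 FPKM or below in all 8 libraries and was not tested.

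Of 20 transcription factors used in these lineages, 5 were higher and 6 lower in Flt3-ITD than in control libraries (median 0.11). Of all genes, 8.51% passed as higher and 9.50% as lower. In the normalized table, which called a larger share of all genes, none was higher and 9 were lower (median -0.44). Gata1 was at 3.60 and 5.83 FPKM in the combined, 3.16 and 0.534 FPKM in the Flt3-ITD, 26.6 and 25.5 FPKM in the Smc3 del/+ and 30.1 and 32.1 FPKM in the control libraries (Flt3-ITD against control, -3.67 ± 0.42, limma adjusted p = 0.00269). Its cofactor Zfpm1 (-3.06, adjusted p = 0.000153), the repressor Gfi1b (-3.86, adjusted p = 0.000519) and Tal1 (-2.55, adjusted p = 0.00140) were lower too. These 4 factors also serve red cells and megakaryocytes. Gata2, required for mast cells and basophils and picked with its values known, was at 5.09 and 5.73 FPKM in the combined, 3.27 and 7.06 FPKM in the Flt3-ITD, 12.1 and 9.21 FPKM in the Smc3 del/+ and 13.3 and 12.7 FPKM in the control libraries (Flt3-ITD against control, -1.26 ± 0.30, adjusted p = 0.0279). Both GATA factors were lower in every library with Flt3-ITD than in any without it. Both lay below the controls in the Smc3 del/+ libraries, where Cpa3, Ms4a2, Mcpt8 and Prss34 lay above them. None of the 20 factors and no member passed in Smc3 del/+ against control. A link between the GATA factors and the members was not tested. The higher factors included Irf8 (1.35, adjusted p = 0.0161) and Fli1 (0.75, adjusted p = 0.00636), both also used by other blood lineages, with 0.82 (adjusted p = 0.0636) and 0.24 (adjusted p = 0.300) in the normalized table.

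**Figure D4:**
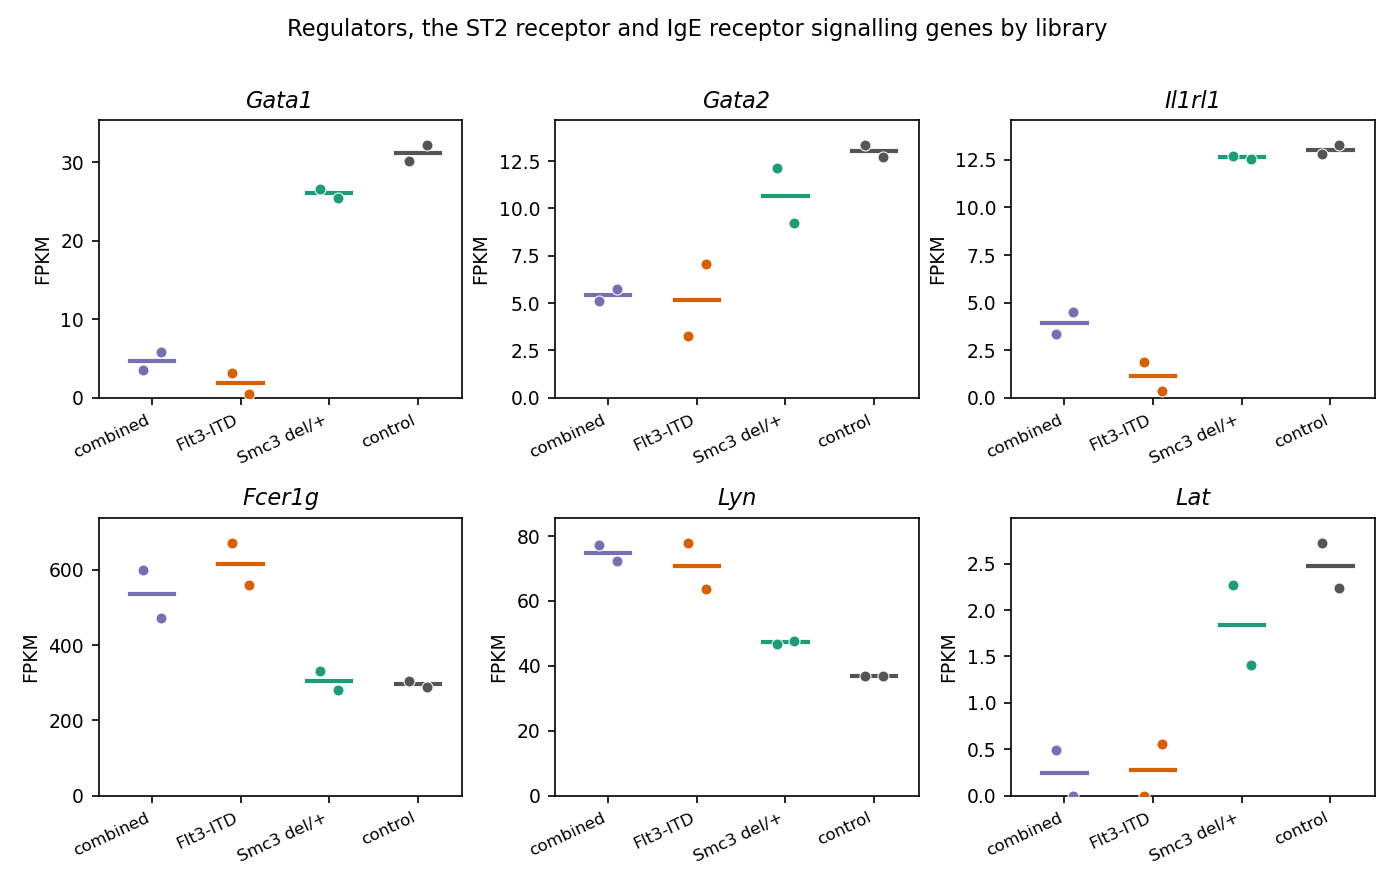
Levels in FPKM (vertical axis, from 0) of the transcription factors Gata1 and Gata2, the receptor Il1rl1 and the IgE receptor signalling genes Fcer1g, Lyn and Lat in the combined, Flt3-ITD, Smc3 del/+ and control libraries, with a point for each library and a bar at the mean of 2. Gata1, Gata2, Il1rl1 and Lat are lower, and Fcer1g and Lyn higher, in the 4 libraries with Flt3-ITD than in the 4 without.

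Of 10 further genes tested from the list of mast cell proteases and granule genes, 4 were higher and 1 lower in Flt3-ITD than in control libraries (median 0.24). Of all genes, 18.0% passed. In the normalized table, which called a larger share of all genes, none was higher and 3 were lower (median -0.24). The lower one was Rab27b, a GTPase of granule release in mast cells and platelets (-1.81 ± 0.31, limma adjusted p = 0.00975). Rab27b was at 0.328 and 0.615 FPKM in the Flt3-ITD and 4.05 and 4.22 FPKM in the control libraries. It passed the filter through libraries other than Flt3-ITD, so that a call in this direction was favoured. The higher ones included Cd63 (0.69, adjusted p = 0.0171), Stxbp2 (0.71, adjusted p = 0.0338) and Serpinb1a (0.86, adjusted p = 0.0460). Among 7 tested enzymes of histamine and lipid mediators, Hdc not counted, 4 were higher and none lower (median 0.71), against the same 18.0% of all genes. In the normalized table none was higher and 1 lower (median 0.18). The 4 higher ones were the leukotriene enzymes Lta4h (0.99, adjusted p = 0.00603) and Alox5 (1.26, adjusted p = 0.0334), the Alox5 partner Alox5ap (1.01, adjusted p = 0.0184) and the prostaglandin synthase Ptgs1 (0.71, adjusted p = 0.0254). Neutrophils and monocytes also express these enzymes. Of 14 cytokines made by mast cells and basophils, 4 were tested and none passed by limma in Flt3-ITD against control. An unadjusted p under 0.05 was found for 2 of the 4, and for 33.9% of all genes. The normalized table called 1 lower. In Smc3 del/+ against control none of these genes passed by limma, and 4.55% of all genes had an unadjusted p under 0.05. Those of the lists numbered 2 of 10 granule genes, 1 of 7 mediator enzymes, 3 of 15 receptors, 2 of 20 factors and 1 of 4 cytokines.

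Markers of other cell types moved with the same groups, and their part in the members' differences was not tested. Beside the counts below, 18.0% of all genes passed in Flt3-ITD against control, and the normalized table called a larger share. In Smc3 del/+ against control, 4.55% of all genes had an unadjusted p under 0.05. The 8 neutrophil markers, all detected in every library, summed to 142190 and 172250 FPKM in the combined, 229030 and 160330 in the Flt3-ITD, 108540 and 104480 in the Smc3 del/+ and 86672 and 79407 in the control libraries, and 3 of the 8 were higher in Flt3-ITD than in control libraries and none lower (2 higher in the normalized table). Hdc was lowest in the controls as well, though not in the normalized table. The 9 eosinophil markers summed to 583 and 249 FPKM in the combined, 159 and 139 in the Flt3-ITD, 144 and 167 in the Smc3 del/+ and 76.8 and 76.4 in the control libraries. All 7 tested eosinophil markers, like the 6 mast cell and basophil genes, had higher means in Smc3 del/+ than in control libraries (6 of 7 in the normalized table), and none passed by limma, with 2 at an unadjusted p under 0.05. The 8 erythroid markers summed to 138 and 476 FPKM in the combined, 125 and 34.5 in the Flt3-ITD, 1302 and 1420 in the Smc3 del/+ and 1450 and 1370 in the control libraries, and 6 of 7 tested were lower in Flt3-ITD than in control libraries.

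In Flt3-ITD against control, where 18.0% of all genes passed, 3 of 6 monocyte markers were higher (1 in the normalized table). Lower were 7 of 7 megakaryocyte markers, 6 of 7 B cell markers and 1 of 4 c-Kit-positive progenitor markers (3 of 4 in the normalized table). Of 6 T and NK cell markers, only Ncr1 was tested, which passed the filter through the libraries without Flt3-ITD, and it was lower. Megakaryocyte markers summed to 16.7 and 64.9 FPKM in the combined, 17.2 and 23.9 in the Flt3-ITD, 70.7 and 79.7 in the Smc3 del/+ and 203 and 198 in the control libraries. None of the 7 passed by limma in Smc3 del/+ against control, where 5 had an unadjusted p under 0.05, against 4.55% of all genes. The normalized table called 3 lower. B cell markers came to at most 9.53 FPKM in the combined and Flt3-ITD libraries, with 3 to 6 of the 7 listed at 0, against 29.4 to 43.0 in the Smc3 del/+ and 70.2 to 187 in the control libraries.

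The profiles most like those of the members over the 8 libraries, among 10848 other genes, were mostly not mast cell genes. For Cpa3 they were Topbp1 (r = 0.981), Chchd2 (0.977) and Ppp2r1b (0.974), with 162 genes above r = 0.9. Ms4a2 was followed by Mrpl32 (0.975), Alg6 (0.960) and Smc3 (0.949), and Prss34 by Ndufb9 (0.981), Psd3 (0.967) and Lancl2 (0.945). For Mcpt8 the nearest were 2210015D19Rik (0.975), Dus4l (0.961) and Bckdk (0.928), for Fcer1a Usp33 (0.959), Ercc8 (0.959) and Scamp4 (0.947), and for Hdc Agpat2 (0.973), Hp (0.972) and Ccdc90a (0.970), with 246 genes above r = 0.9. The mean of the 6 standardized profiles was closest to Tbrg1 (0.959), Dus4l (0.956), Psd3 (0.940), 2210015D19Rik (0.930), Recql (0.923), Atp5s (0.914), 2610002M06Rik (0.914), A430033K04Rik (0.913), Gm16973 (0.912) and Gm13154 (0.902). With 8 libraries in 4 groups such coefficients arise for many genes, and they are given as a description.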

How the data were processed

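Polyadenylated RNA of 8 mice, 2 for each of 4 genotypes, was sequenced after magnetic selection of c-Kit-positive marrow; per the labels, each library comes from an individual mouse. The authors deposited FPKM in 2 tables of 23385 rows; the submitters' processing notes name build mm9, Cufflinks 2.0.0 and TopHat, without their roles. The sources used here do not give how the second table was normalized or whether counting used strand. Read depth is unknown; 10490 to 10843 genes per library reached 1 FPKM. The first table gave the main results and the second an alternative.

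Values were tested as log2(FPKM + 1), which understates changes of low genes, with limma 3.58.1 (R 4.3.3, trended empirical Bayes). The test covered 10854 mouse genes averaging 1 FPKM or more, without 92 spike-in rows, and p was adjusted by Benjamini-Hochberg over all of them (threshold 0.05). Group comparisons and the interaction came from a fit of 4 group means (4 residual degrees of freedom) and averaged effects from an additive model (5). For a gene on its own, exact permutation of 2 against 2 libraries reaches p = 0.333 at the lowest. The fits were tested on simulated data.

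The 8 genes, the gene lists and the tests were chosen with earlier results of these data known. Every member is named; of each list, up to 6 called genes with the smallest p in Flt3-ITD against control, plus any whose direction counts 5 or fewer; and the 3 genes (10 for the mean profile) with the highest Pearson r. Promoters were matched by symbol for 7 of 8 members (RefSeq, GRCm38.p6; not Tpsb2), and motifs searched as letters. No coordinates of mm9 were used.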

Additional observations from a re-analysis of the deposited data

How the results depend on the processing

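Over the 6 tested genes and 7 comparisons, scaling by the median ratio and a pseudocount of 0.1 left every gene's direction and call as it was. In the authors' normalized table Hdc turned to -0.23 in combined against control, -0.040 for the averaged Flt3-ITD effect and -0.19 for the averaged Smc3 deletion effect, and the interaction turned to 0.15 for Mcpt8, 0.21 for Ms4a2 and 0.27 for Fcer1a; its median gene lay at -0.58, -0.67 and -0.38 in Flt3-ITD, combined and Smc3 del/+ against control. That table called 5 members in Flt3-ITD against control, where 4874 of 11027 genes were called. It called 4 members in combined against control, where 5981 genes were called. Without a filter, Cpa3 in Flt3-ITD against control (adjusted p = 0.0855) and Ms4a2 in the averaged effect (0.0575) were no longer past the threshold, and without the variance trend Cpa3 was not (0.0591). With only the 2 groups compared, 1 member was called in Smc3 del/+ against control and 5 in Flt3-ITD against control. The causes were not tested.

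Leaving out each library in turn, the members called ranged from 0 to 5 in Flt3-ITD against control, 0 to 3 in combined against Flt3-ITD, 0 to 2 in combined against control, 0 to 1 for the interaction and 3 to 5 for the averaged Flt3-ITD effect, and stayed at 0 in Smc3 del/+ against control and for the averaged Smc3 deletion effect; where this left a group with a lone library, that library was taken to vary like the others. Values that changed sign ranged from -0.32 to 0.70 for Cpa3 and -0.49 to 1.15 for Fcer1a in combined against Flt3-ITD, from -0.27 to 0.13 for Prss34, -0.51 to 0.32 for Ms4a2 and -1.55 to 0.090 for Fcer1a in combined against control, from -0.21 to 0.081 for Mcpt8, -0.46 to 0.37 for Ms4a2 and -1.0 to 0.64 for Fcer1a in the interaction, and from -0.015 to 0.20 for Hdc in the averaged Smc3 deletion effect.

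The counts of all genes called also moved. Leaving out a library gave 1 to 12 in Smc3 del/+ against control (1 with all libraries), 243 to 4235 in Flt3-ITD against control (1955), 3 to 3248 in combined against Flt3-ITD (31), 83 to 3427 in combined against control (1279), 4 to 2036 for the interaction (4), 0 to 1 for the averaged Smc3 deletion effect (0) and 1208 to 4703 for the averaged Flt3-ITD effect (2581). The normalized table gave 4874 in Flt3-ITD, 5981 in combined and 12 in Smc3 del/+ against control, 19 for the interaction, 3 for the averaged Smc3 deletion effect and 5053 for the averaged Flt3-ITD effect. A pseudocount of 0.1 gave 3 in Smc3 del/+ against control and 5 in combined against Flt3-ITD; no filter gave 3, 9 and, for the interaction, 2; a mean of at least 5 FPKM gave 17 in combined against Flt3-ITD. Fitting only the 2 groups gave 22 in Smc3 del/+ and 3603 in Flt3-ITD against control, 2 in combined against Flt3-ITD and 41 in combined against control. Without the variance trend, 3 were called in Smc3 del/+ against control and 7 for the interaction. The replicate block gave 3 in combined against Flt3-ITD and 1 for the averaged Smc3 deletion effect, and changed no call of a member; samples of the same number did not deviate together (r from -0.113 to 0.0229), so the numbers do not pair them.

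With 2 libraries a group and unknown depth, genes near 1 FPKM such as Fcer1a carry wide errors. In Smc3 del/+ against control no member passed after adjustment over all genes. Cpa3 and Mcpt8 had an unadjusted limma p of 0.0274 and 0.0322 there.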
